A study of Sus scrofa with 24 samples.

Results

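The hippocampal expression of the potassium channel genes was described in 24 piglets at postnatal day 14. The members were all genes of the deposited counts whose identifier maps to a pig symbol that starts with KCN, which gave 90 of 38882 listed genes. Of these, 65 had 3 or more libraries at 1 CPM or above (CPM is the read count scaled to the size of the library) and were tested, among 16326 genes that passed this filter. All piglets were PIC Camborough (dam) x PIC 359 (sire) crosses born naturally at full term and fed formula, and they formed 4 groups of 6. Piglets small for gestational age (SGA) by birth weight and their sex-matched littermates appropriate for gestational age (AGA) received either a control formula (CON) or a formula with hydrolyzed fat (HF), in which free fatty acids, monoacylglycerol palmitate and lecithin took the place of part of the triglyceride. The groups are AGA CON, SGA CON, AGA HF and SGA HF, and in all of them whole hippocampal tissue was used. The 12 litters, 6 on each diet, came in 2 cohorts, and 12 piglets were male and 12 female. Each litter gave 1 SGA and 1 AGA piglet, both on its diet, so size differed within litters and diet between litters. The main fit had no term for litter. Size was compared within litters only where litter is named as a block.

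Potassium channels let potassium ions leave the cell along their gradient and thereby set the resting potential and end the action potential. Voltage-gated channels of the KCNA, KCNB, KCNC, KCND, KCNH and KCNQ subfamilies open on depolarization, while inward rectifiers (KCNJ) and tandem-pore leak channels (KCNK) act near rest, and KCNM, KCNN and KCNT channels answer to calcium or sodium inside the cell. The silent subunits (KCNF, KCNG, KCNS, KCNV) do not form channels alone but change KCNB channels, and the auxiliary subunits (KCNAB, KCNE, KCNIP, KCNMB) bind to pore-forming ones. In the hippocampus, KCND channels with their KCNIP partners act in the dendrites of pyramidal cells, KCNC channels allow fast-spiking interneurons to fire at high rates, and KCNJ10 clears potassium through astrocytes.

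Library totals over the listed genes ranged from 6017336 to 9284355 reads, so that 3 reads, the limit that a count of 0 allows, equalled 0.323 to 0.499 CPM (counting error only). Reads on KCN genes made up 0.212 to 0.249% of a library, with a median of 0.227%. Markers of hippocampal principal cells, the dentate gyrus, astrocytes and oligodendrocytes were present in every group. A few libraries stood apart. AGA CON replicate 2 (litter 4) had the lowest sum of 8 neuronal markers (3977 CPM) and the highest endothelial, microglial and mural sums of its group. AGA HF replicate 4 (litter 7) followed with 4921 CPM of neuronal markers. Its littermate SGA HF replicate 4 held 369.6 CPM of pituitary genes, against 26.9 to 42.7 CPM in the 23 others. The neuronal sum of the remaining libraries reached 8959 CPM. The main results on size are therefore given with and without litters 4 and 7. In whole tissue, fewer cells of a type and less RNA per cell cannot be told apart.

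Per kilobase of gene model, auxiliary subunits led the family. KCNIP3, a calcium-binding partner of KCND channels, had 96.0 ± 15.4 RPKM (SD, n = 24), and its relative KCNIP2 had 85.6 ± 12.0 RPKM. KCNAB2, a cytoplasmic subunit of KCNA channels, followed among them with 50.2 ± 9.80 RPKM. The 12 tested auxiliary genes held 41.05% of the summed RPKM of the family. The RPKM values rest on the gene models of the older Sscrofa10.2 build, so that the order between genes carries their errors. Some models are short, such as 592 bp for KCNIP1, 834 bp for KCNIP3 and 1001 bp for KCNAB2. The paper attributes the average RNA quality number of these samples to pre-spliced RNA. The effect of RNA quality on the order was not tested. The first 5 genes by this measure (KCNIP3, KCNIP2, KCNJ10, KCNAB2 and KCNA6) made up 43.5% of the summed RPKM.

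Among pore-forming genes, KCNJ10 was highest at 56.2 ± 9.65 RPKM, and KCNA6, a delayed rectifier of axons, was next at 46.5 ± 9.21 RPKM. KCNA1, which shares axonal channels with KCNA6, had 14.1 ± 2.63 RPKM, and KCNA2, which joins them, had 1.10 ± 0.463 RPKM from a model on an unplaced scaffold. KCNH2, the pore of the rapid delayed rectifier, led its subfamily at 15.4 ± 2.45 RPKM, as did KCND2 at 10.3 ± 1.31 RPKM. KCND2, the main pore of the dendritic A-type current, varied least of the 37 genes with a mean of at least 10 CPM, with a coefficient of variation (CV) of 12.7%. KCNIP4 varied most among them, with a CV of 28.5%. The median CV of these 37 genes was 18.8%, against 13.6% over all 9078 genes with a mean of at least 10 CPM. These sets share only that floor and were not matched for level, and 3 KCN genes reached a mean of 100 CPM. The CVs are therefore not compared at like levels.

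Of the silent subunits, KCNF1 had 34.6 ± 8.59 RPKM and KCNG1 18.04 ± 4.06 RPKM. KCNK4, a mechanosensitive leak channel of neurons, led its subfamily at 29.8 ± 4.61 RPKM, ahead of KCNK1 (9.09 ± 1.79) and KCNK10 (6.79 ± 1.01). Of the small-conductance calcium-activated channels, KCNN1 had 27.9 ± 6.14 RPKM, KCNN2 14.4 ± 2.71 and KCNN3 1.16 ± 0.316. KCNMA1, the pore of the BK channel, had 2.47 ± 0.660 RPKM, and the sodium-activated KCNT1 had 7.87 ± 1.18. Among the subunits of G protein-gated rectifiers, KCNJ3 had 7.25 ± 1.22 RPKM, KCNJ9 6.105 ± 1.54 and KCNJ6 0.693 ± 0.364. Of the vascular and metabolic rectifiers, KCNJ8 had 5.38 ± 1.26 RPKM and KCNJ11 7.77 ± 1.41. KCNJ16, which pairs with KCNJ10 in astrocytes, had 2.13 ± 0.791 RPKM.

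**Figure D1:**
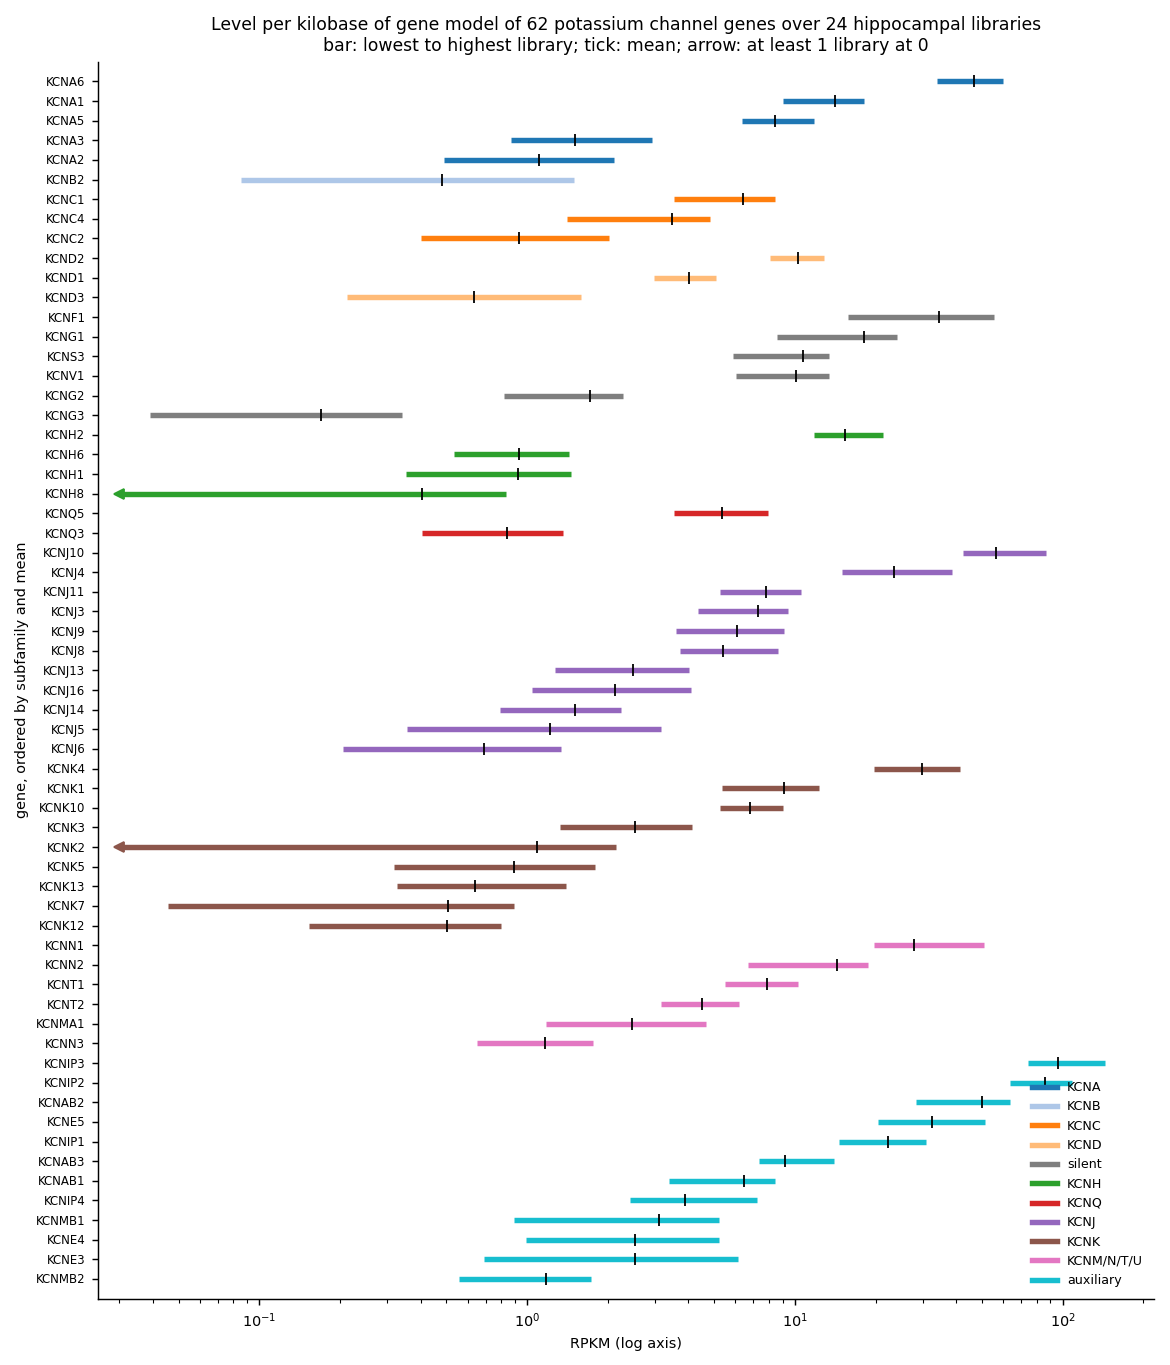
Level of 62 of the tested potassium channel genes in RPKM on a log axis, ordered by subfamily and mean; bars run from the lowest to the highest of 24 libraries, ticks mark means, and arrows mark genes with a library at 0. KCNIP3, KCNIP2, KCNJ10 and KCNAB2 have means above 50 RPKM, and KCNG3 is lowest at 0.171 RPKM.

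The remaining 25 listed KCN genes did not reach the filter. No read was counted in any library for 7 of them (KCNA10, KCNG4, KCNH5, KCNK16, KCNK18, KCNMB3 and KCNS2), which allows up to 3 reads in a library. KCNE2, an auxiliary subunit that marks the choroid plexus, had 1 read over all 24 libraries. KCNJ13, another rectifier known from that epithelium, had 7.42 ± 2.00 CPM with at least 25 reads in each library, while the summed choroid plexus markers ran from 1.81 to 147.3 CPM. KCNA4 (0.410 CPM on average) and KCNH7 (0.254 CPM), both known from hippocampal neurons, also fell below the filter. KCNMB4 was not analysed here.

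The first comparison asked how potassium channel expression differed between SGA and AGA piglets. No KCN gene passed the FDR threshold of 0.4 in the fit of the 4 groups with sex and 5 surrogate variables. This fit does not pair the littermates, and 0.478% of all tested genes passed in it. The smallest FDR was 0.446, for KCNMB1. At an unadjusted p under 0.05, 5 of 65 KCN genes (7.69%) differed, all higher in SGA, against 10.6% of all genes. DESeq2 called 1 KCN gene (KCNMB1, log2 fold change 0.54, FDR = 0.327; 1.29% of all genes called), limma voom called 0, and edgeR with the FDR taken within this comparison alone called 3, among them KCNMB1 and KCNH8 (7.35% of all genes called). The median log2 fold change was 0.02 over the KCN genes and -0.002 over all genes, and 34 of 65 KCN genes lay above 0.

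With litter as a block, 2 KCN genes passed the threshold, KCNMB1 among them, both higher in SGA piglets, against 2.57% of all genes. KCNMB1 encodes a BK channel subunit that is best known from smooth muscle (chromosome 16, 57959628 to 57972407, Sscrofa10.2). On CON it had 4.06 to 10.54 CPM (median 6.01) in AGA and 5.63 to 11.2 CPM (median 6.78) in SGA piglets. On HF it had 1.92 to 6.91 CPM (median 5.12) in AGA and 6.39 to 9.74 CPM (median 7.56) in SGA piglets. The groups overlapped on both diets. It was higher in the SGA piglet in 11 of 12 litters, with a log2 fold change of 0.47 ± 0.15 (SE) and an FDR of 0.400, just under the threshold, with the block. When each litter in turn was left out of the blocked fit, KCNMB1 passed in 4 of 12 fits, with FDR values from 0.368 to 0.569, while 0.858 to 4.61% of all genes were called in these fits. In the fit without the block, leaving out litter 5 (HF, cohort 1) called 7 KCN genes higher in SGA, among them KCNAB2, KCNK4, KCNMB1, KCNN2 and KCNQ3, against 7.86% of all genes.

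KCNQ3, a subunit of the M-current that restrains repetitive firing, had an FDR of 0.416 with the block. On CON its level was 2.09 ± 0.650 CPM in AGA and 2.87 ± 0.620 CPM in SGA piglets (SD, n = 6), and on HF 1.85 ± 0.525 and 3.18 ± 0.841 CPM, with the SGA piglet higher in 9 of 12 litters. At an unadjusted p under 0.05 in the blocked fit, 14 of 65 KCN genes differed (10 higher and 4 lower), against 12.4% of all genes. Beside KCNMB1 and KCNQ3, those with a higher value in SGA included KCNAB3, KCNF1, KCNG1, KCNJ11, KCNK4 and KCNN1, with log2 fold changes from 0.16 to 0.28 and FDR values of at least 0.502. The 4 with a lower value were KCNA6 (-0.15), KCNIP1 (-0.20), KCNJ13 (-0.33) and KCNK5 (-0.47).

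**Figure D2:**
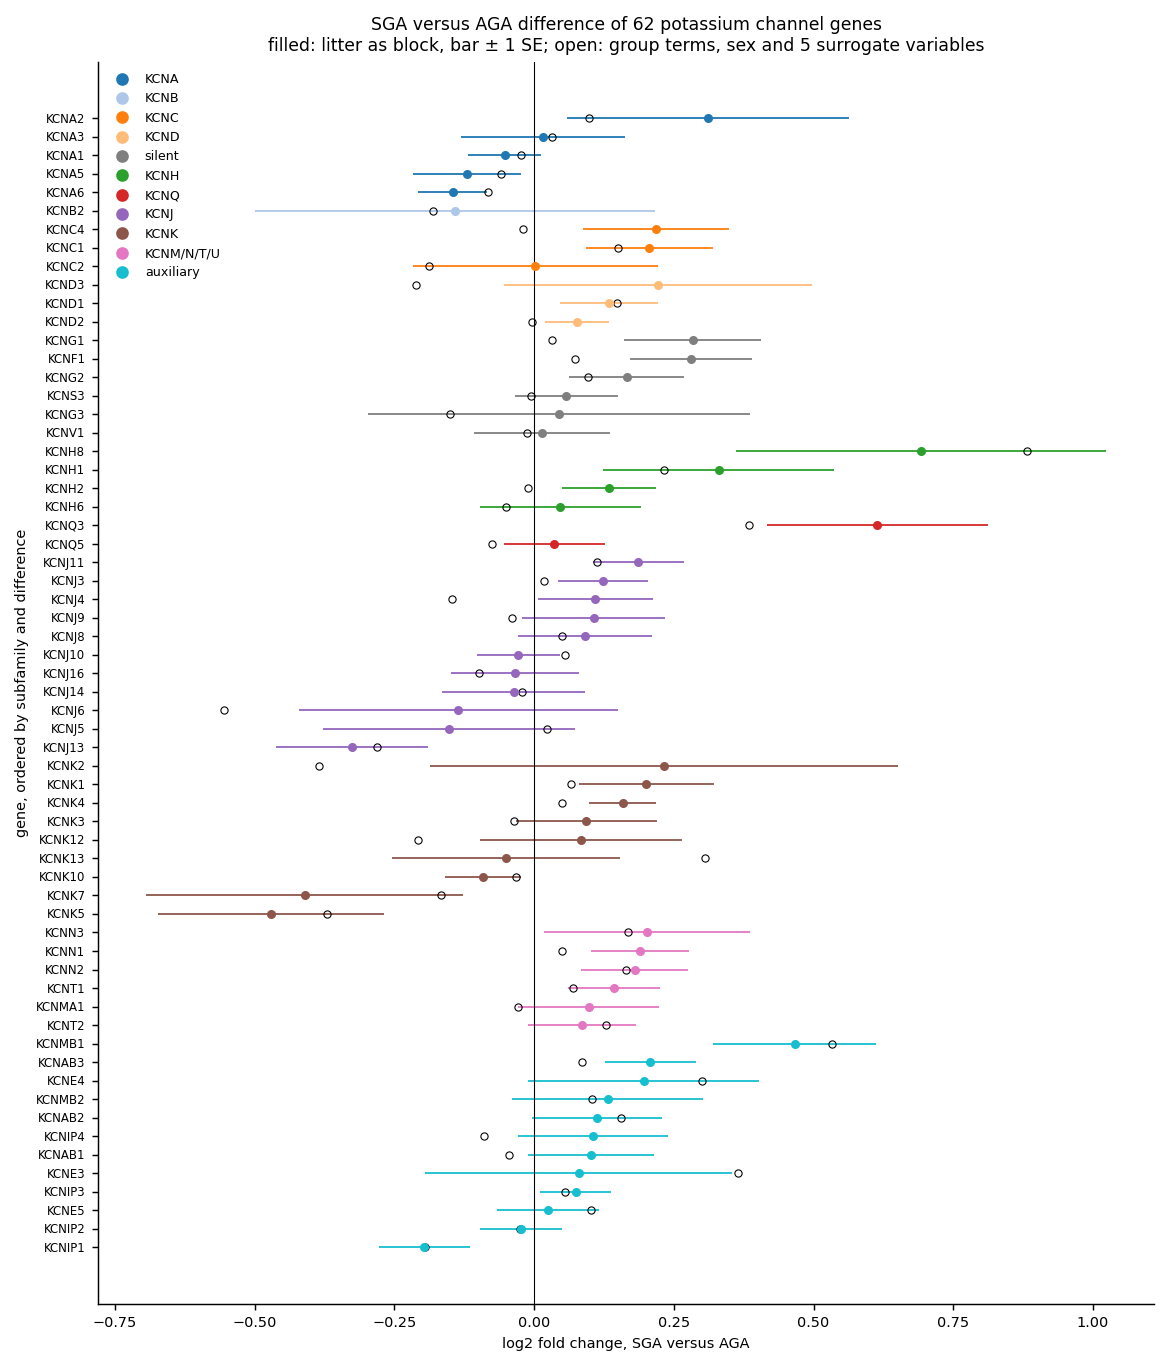
SGA versus AGA log2 fold change of 62 potassium channel genes by subfamily; filled points are the fit with litter as a block with bars of 1 SE, and open points the fit with 5 surrogate variables. 46 filled and 31 open points lie above 0, and KCNMB1 (0.47 with the block) is called in the blocked fit.

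Over the whole list, 49 of 65 KCN genes (75.4%) had a positive difference with the block, against 50.8% of all genes, and the median was 0.10 against 0.003. By subfamily, the count above 0 was 6 of 6 for KCNM, KCNN and KCNT genes, 6 of 6 for silent subunits, 4 of 4 for KCNC, 4 of 4 for KCNH, 3 of 3 for KCND, 3 of 3 for KCNQ and 10 of 12 for auxiliary subunits. It was 5 of 11 for KCNJ, 5 of 9 for KCNK, 2 of 5 for KCNA and 1 of 2 for KCNB genes. All genes were read from the same libraries, so these counts describe the list and were not tested. Summed over the 65 genes, KCN expression on CON was 2297 ± 136 CPM in AGA and 2337 ± 122 CPM in SGA piglets, and on HF 2217 ± 113 and 2322 ± 78.9 CPM (SD, n = 6). A positive sign was more frequent with sex and cohort as terms and no surrogate variables (46 of 65) than with surrogate variables (34 of 65).

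Cell type markers were compared in the same fit. With the block, 8 of 8 neuronal markers (median log2 fold change 0.14) and 7 of 7 hippocampal principal cell markers (0.24) lay above 0, with 0 and 1 called. Dentate markers lay above 0 for 2 of 6 (-0.04), with 0 called. All 8 oligodendrocyte markers lay below 0 (median -0.30), with CNP, MBP and MOBP called lower in SGA. Mural cell markers were above 0 for 4 of 5 (0.11), interneuron markers for 6 of 8 (0.06) and astrocyte markers for 3 of 9 (-0.05). Oligodendrocyte precursor markers were above 0 for 2 of 5 (-0.01) and microglial markers for 0 of 8 (-0.08). The astrocyte marker S100B and the precursor marker OLIG1 were also called. The part of these cell types in the KCN differences was not tested.

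Litters 4 and 7, whose AGA piglets had the lowest neuronal sums, were among those with the most KCN genes higher in SGA, with 42 and 48 of 65, next to 46 in litter 10. The SGA piglet of litter 7 was the library with pituitary genes. The other litters ranged from 29 to 40. The median difference of the neuronal markers was 0.78 in litter 4 and 0.50 in litter 7, but -0.05 in litter 10. Without litters 4 and 7 the blocked fit called 0 KCN genes by edgeR and 0.221% of all genes, with 4 KCN genes at an unadjusted p under 0.05. KCNMB1 then had a log2 fold change of 0.57 ± 0.15 (FDR = 0.570) and KCNQ3 of 0.45 ± 0.20 (FDR = 0.772). The count above 0 was 45 of 65, with a median of 0.07. Neuronal markers stood at 4 of 8 (median 0.03) and hippocampal principal cell markers at 7 of 7 (median 0.15). Dentate markers stood at 2 of 6 (median -0.04) and oligodendrocyte markers at 0 of 8 (median -0.25). Mural markers stood at 5 of 5 (median 0.17). By subfamily the counts above 0 then included 6 of 6 for KCNM, KCNN and KCNT genes, 4 of 6 for silent subunits, 3 of 4 for KCNC, 3 of 4 for KCNH, 3 of 3 for KCND, 2 of 3 for KCNQ, 8 of 12 for auxiliary subunits, 7 of 11 for KCNJ, 5 of 9 for KCNK and 2 of 5 for KCNA genes. Within cohort 1 and within cohort 2 the blocked log2 fold change of KCNMB1 was 0.43 and 0.51, and that of KCNQ3 0.50 and 0.72, with no KCN gene under the threshold.

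**Figure D3:**
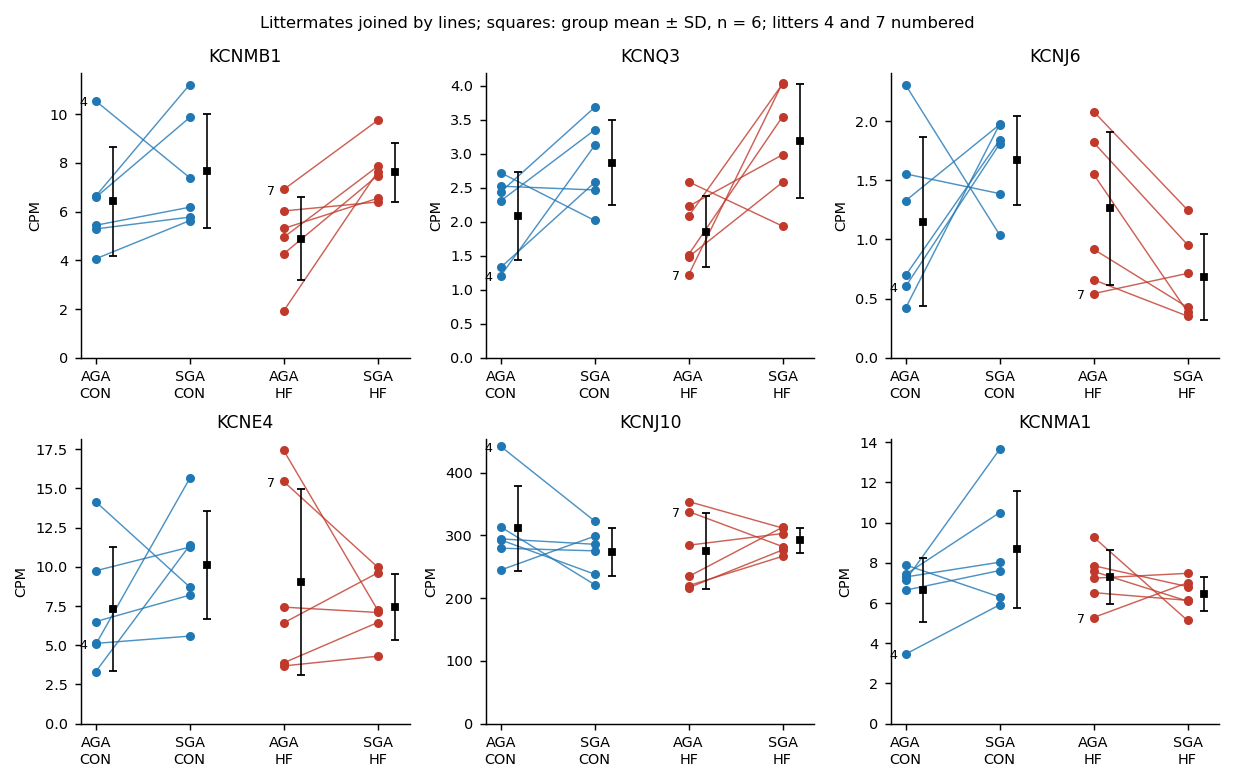
CPM of 6 potassium channel genes in the 24 libraries, with littermates joined by lines, CON in blue, HF in red, and squares for the group mean with SD (n = 6). KCNMB1 is higher in the SGA piglet along 11 of 12 lines, KCNJ6 is lower in 5 of 6 HF litters, and the AGA piglet of litter 4 is highest for KCNJ10 (441.9 CPM) and lowest of its group for KCNQ3 and KCNMA1.

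**Figure D4:**
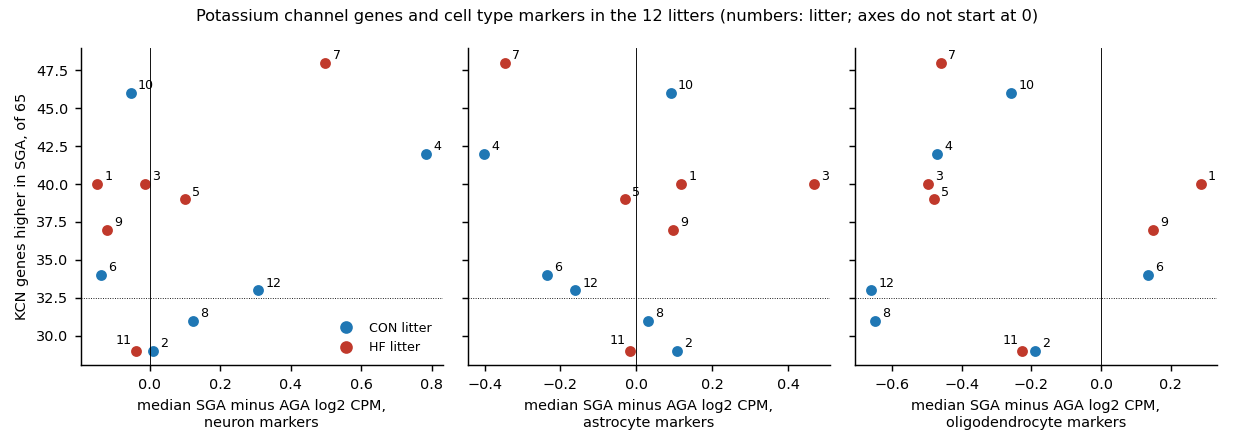
Number of the 65 potassium channel genes higher in the SGA littermate against the median SGA minus AGA log2 CPM of neuronal, astrocyte and oligodendrocyte markers, 1 point per litter; the dotted line marks an equal split. Litters 4 and 7 lie farthest to the right for neuronal and farthest to the left for astrocyte markers.

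Genes that work with potassium channels were described from a list of 31, of which 27 were tested. None was called for size, in either fit. With the block 24 of 27 lay above 0 (median 0.12), and 21 of 27 without litters 4 and 7. The smallest p without the block belonged to GABBR1, the GABA-B receptor subunit whose signal opens KCNJ3 channels (log2 fold change 0.15 ± 0.06, FDR = 0.673), and to LINGO1, an auxiliary protein of BK channels (0.08 ± 0.04, FDR = 0.724). Of 32 tested textbook hippocampal, glial and vascular channel genes, none was called in either fit, and 16 and 24 lay above 0 without and with the block, and 21 with the block and without litters 4 and 7.

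Diet was the next comparison. No KCN gene was called between HF and CON in the fit of the 4 groups, against 0.159% of all genes, nor by DESeq2 or limma voom. At an unadjusted p under 0.05, 8 of 65 KCN genes (12.3%) differed, 4 in each direction, against 7.09% of all genes. KCNG1 (log2 fold change 0.29 ± 0.10), KCNF1 (0.22 ± 0.09), the rectifier KCNJ4 (0.17 ± 0.08) and KCNAB1 (0.19 ± 0.09) had higher values on HF. Among those with lower values were KCNJ10 (-0.13 ± 0.05) and KCNQ5 (-0.19 ± 0.08). Several of these values rested on litter 4: without it KCNG1 was at 0.08 (FDR = 0.870), KCNF1 at -0.015, KCNJ4 at -0.029 and KCNJ10 at -0.012 (FDR = 0.977). With all litters their FDR lay between 0.567 and 0.725. KCNG1 had medians of 73.4 (AGA CON), 85.8 (SGA CON), 77.8 (AGA HF) and 94.5 CPM (SGA HF), over a full range of 39.6 to 111.6 CPM. KCNJ10 had medians of 293.6, 280.6, 259.4 and 292.6 CPM in the same order, over 216.6 to 441.9 CPM. For each of these 6 genes the ranges on CON and HF overlapped in AGA and in SGA piglets.

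The fit of the 4 groups had no term for litter. Because diet was given by litter, littermates were also summed and the 12 litters compared with sex and cohort as terms. No gene was called (0% of all genes), and 4 KCN genes had an unadjusted p under 0.05, all with lower values on HF, against 3.98% of all genes. They included KCNJ6 (log2 fold change -0.61 ± 0.26), KCNK3 (-0.30 ± 0.13) and KCNN1 (-0.17 ± 0.08), each with an FDR of 0.999. Of the genes named for diet above, KCNF1 was at 0.06 ± 0.11 over the litter sums and KCNJ4 at 0.02 ± 0.12. KCNJ10 was at -0.05 ± 0.10 and KCNQ5 at -0.17 ± 0.10, and none of these had an unadjusted p under 0.05. Without litter 4 the fit of the 4 groups called 6 KCN genes lower on HF, among them KCNAB2, KCNC1, KCNJ11, KCNK4 and KCNQ5, with log2 fold changes from -0.32 to -0.17, against 3.69% of all genes. Without litters 4 and 7 it called 0 (0.0796% of all genes), with 6 at an unadjusted p under 0.05.

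The size by diet interaction called 0 KCN genes (0.049% of all genes), with 2 of 65 at an unadjusted p under 0.05 against 4.01%, and with the block 0 (0.276%), with 1 of 65 against 3.73%. DESeq2 and limma voom called 0. KCNJ6, a subunit of the G protein-gated rectifier, had 0.420 to 2.30 CPM (median 1.01) in AGA CON and 1.04 to 1.97 CPM (median 1.82) in SGA CON piglets. It had 0.542 to 2.08 CPM (median 1.23) in AGA HF and 0.352 to 1.25 CPM (median 0.570) in SGA HF piglets, so that the groups overlapped on both diets at levels of 3 reads upward. The interaction was -1.28 ± 0.51 on the log2 scale (FDR = 0.652) and -1.46 ± 0.58 with the block (FDR = 0.527). The SGA piglet was higher in 4 of 6 CON and in 1 of 6 HF litters. KCNE4, an inhibitory auxiliary subunit, had an interaction of -1.002 ± 0.41 (FDR = 0.663) and of -0.67 ± 0.41 with the block (FDR = 0.722). Its median was 5.81 CPM in AGA and 9.98 CPM in SGA piglets fed CON, and 6.93 and 7.17 CPM in those fed HF, with overlapping ranges. Of the genes with a positive interaction, KCNH6 (0.53 ± 0.29) and KCNMB2 (0.50 ± 0.34) had the smallest p. Without litter 5 the interaction of KCNE4 was called (-1.21, FDR = 0.286; 2.03% of all genes called), and without litter 6 that of KCNJ6 in the blocked fit (-1.86, FDR = 0.362; 0.306% called). Without litter 11 the interaction of KCNE4 was -0.50 (FDR = 0.854), and without litter 9 that of KCNJ6 in the fit without the block was -1.12 (FDR = 0.817).

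The 4 pairwise comparisons called 0 KCN genes in the edgeR fit without the block. On CON, SGA and AGA differed at an unadjusted p under 0.05 in 3 of 65 KCN genes against 6.59% of all genes (0.129% called), led by KCNE4 (log2 fold change 0.80 ± 0.30). On HF this was 5 of 65 against 8.02% (0.288% called), led by KCNMB1 (0.73 ± 0.21, FDR = 0.457) and KCNJ6 (-1.19 ± 0.40, FDR = 0.564). DESeq2 called KCNMB1 on HF (FDR = 0.338; 0.827% of all genes called), as did edgeR with the FDR taken within this comparison (FDR = 0.306; 1.44% called). With the block, 1 KCN gene was called on HF, against 0.888% of all genes (0 without litters 4 and 7, against 0.0368%, with 4 of 65 at an unadjusted p under 0.05), with 4 of 65 at an unadjusted p under 0.05 against 8.13%, and none on CON, against 1.26%, with 7 of 65 against 8.64%. KCNMB1 had an FDR of 0.404 on HF with the block.

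HF against CON in AGA piglets gave 9 of 65 KCN genes at an unadjusted p under 0.05 against 6.09% of all genes (0.0674% called), with KCNF1 (0.30 ± 0.12) and KCNJ10 (-0.19 ± 0.07) at the smallest p in each direction. In SGA piglets it gave 4 of 65 against 5.16% (0.0919% called), with KCNG1 (0.33 ± 0.13) and KCNJ6 (-0.99 ± 0.37). DESeq2 and limma voom called 0 in both.

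Cohort was compared over the litter sums, as the piglets were brought in together within a cohort. KCNA6 was called between the cohorts, the only KCN gene against 0.447% of all genes at an FDR under 0.05, and 10 of 65 had an unadjusted p under 0.05 against 11.2%. In cohort 1 KCNA6 ran from 191.9 to 262.3 CPM (median 212.0) and in cohort 2 from 212.8 to 337.9 CPM (median 322.0), with the lowest library of cohort 2 an SGA CON piglet. The log2 fold change was 0.44 ± 0.07 (FDR = 0.0107), and without litter 3 it was 0.43 with an FDR of 0.0806. Oligodendrocyte markers lay above 0 for 8 of 8 genes in cohort 2 (median 0.42), microglial markers for 7 of 8 (0.48) and neuronal markers for 6 of 8 (0.08). Other lists lay mostly below 0, with astrocyte markers above 0 for 3 of 9 (-0.18), endothelial for 0 of 5 (-0.20) and dentate for 1 of 6 (-0.13). The part of these cell types in the KCNA6 difference was not tested.

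KCNE4 (0.82 ± 0.19, FDR = 0.0900), KCNA3, a channel known from microglia and lymphocytes (-0.63 ± 0.15, FDR = 0.108), and KCNH8 (-0.87 ± 0.24, FDR = 0.164) did not pass for cohort in edgeR. Between males and females 0 KCN genes were called by edgeR (0.104% of all genes called) and 0 by DESeq2, with 6 of 65 at an unadjusted p under 0.05 against 3.65%.

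**Figure D5:**
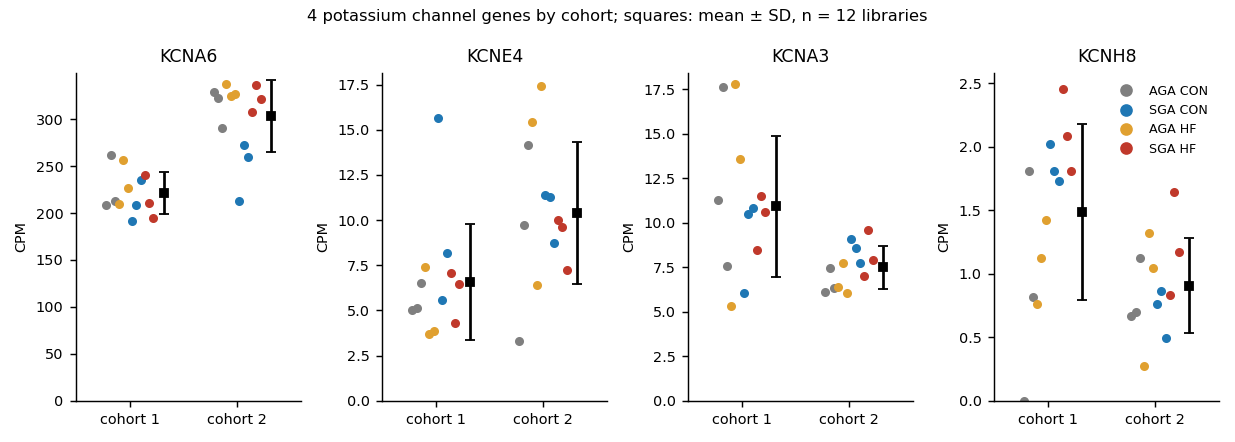
CPM of KCNA6, KCNE4, KCNA3 and KCNH8 in the 12 libraries of each cohort, coloured by group, with squares for the mean and SD over 12 libraries. KCNA6 has a mean of 221.4 CPM in cohort 1 and 303.4 CPM in cohort 2, and the 3 other genes, named for the smallest p after it, overlap widely.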

How the data were processed

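Per the labels, polyA RNA of hippocampus was sequenced from stranded libraries. The authors trimmed reads (Trimmomatic 0.33), aligned them to Sscrofa10.2 with STAR 2.5.2a and deposited whole-number read counts per gene from featureCounts (Subread 1.5.0). Symbols were matched by gene identifier to Sscrofa11.1 names (23036 of 38882 matched). The entry without identifier (0.613 to 1.62% of reads) was left out.

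TMM-normalized counts of genes passing the CPM filter were fitted with edgeR 4.0.16 (quasi-likelihood; R 4.3.3) on group, sex and 5 surrogate variables (sva 3.50.0, prior count 2), with Benjamini-Hochberg FDR over 7 contrasts together and a threshold of 0.4, as in the study. The fit with litter as a block adjusted its 4 contrasts together; litter sums used FDR under 0.05 per contrast. The litters come from the labels. Littermates' deviations from group means correlated at 0.154 on average (0.0144 to 0.329), against 0.0314 for 24 other pairs. All littermates were of the same sex, the other pairs of the same or opposite sex, and the deviations were not adjusted for sex. Other pairs of the same sex ran from -0.0975 to 0.211, and those of opposite sex from -0.158 to 0.220. Litter and sex were not told apart here. Alternatives used limma 3.58.1, DESeq2 1.42.0, other size factors, no filter and left-out litters. Methods were tested on simulated counts, drawn independently for each library with no litter or cell type structure. Such counts cannot show how the fits deal with that structure. Members, marker and partner lists were chosen with earlier results of these data known. Named genes are those called, of smallest p per contrast and direction, of highest RPKM per subfamily, textbook channels and the extremes of CV; others were named after their values were seen. A few members are counted with the list but not reported here by name, and the figures leave them out.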

Additional observations from a re-analysis of the deposited data

Results flagged for a closer look

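In groups of 6 libraries, 42 named genes gave 168 sets of values, and 15 of them (8.93%) held 1 library whose gap to its neighbour was large against the range of the group by Dixon's test, where chance gives about 1 in 20. AGA CON replicate 2 accounted for 4, with the lowest KCNK4 (62.6 CPM), KCNJ3 (23.5) and KCNMA1 (3.46) and the highest KCNJ10 (441.9) of its group. AGA HF replicate 4 had the lowest KCNJ3 (27.5 CPM). Both libraries also had the lowest neuronal marker sums of their groups.

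The others were spread over 6 libraries. SGA CON replicate 6 had the lowest KCNIP2 (183.8 CPM) and the highest KCNIP4 (32.2), and SGA CON replicate 5 the highest KCNJ9 (16.1) and KCNK10 (66.1). SGA CON replicate 4 had the lowest KCNK2 (0.152 CPM, below the level of 3 reads). SGA HF replicate 3 had the highest KCNMB2 (5.67 CPM) and the lowest KCNAB1 (15.0). SGA HF replicate 2 had the lowest KCNJ13 (5.41 CPM) and KCNK10 (45.2), and AGA HF replicate 6 the highest KCNJ11 (18.9).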

How the results depend on the processing

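Counts of called KCN genes moved as follows. For SGA versus AGA, against 0 called, DESeq2 called 1, the FDR taken within the contrast 3, and the fit with litter as a replicate block 2, also 2 with limma voom and 2 with other size factors in the blocked fit. On HF, DESeq2, the FDR within the contrast and the litter block each called 1, and the block changed no other count. Leaving out 1 litter at a time gave 0 to 7 for size and 0 to 6 for HF versus CON. The highest counts came without litter 5 for size and without litter 4 for diet, where 7.86% and 3.69% of all genes were called. With the block the range for size was 1 to 4, with 0.858 to 4.61% of all genes called. For the interaction it was 0 to 1 in both fits. The calls came without litter 5 (2.03% of all genes) and, with the block, without litter 6 (0.306%). For size on CON the range was 0 to 1 (0 to 4 with the block) and for size on HF 0 to 5 (0 to 2 with the block). For diet in AGA it was 0 to 4 and for diet in SGA 0 to 2. For these pairwise ranges the shares of all genes are not given, so they are not read as results about the KCN genes. For cohort, 1 KCN gene was called among 73 of all genes. DESeq2 called 3 (KCNA3, KCNA6 and KCNE4) among 227, and no filter on low counts 4 among 680 of a larger set of genes. Leaving out litters gave 0 to 2, with 0 without litter 3, where 11 of all genes were called. For sex, no filter called 1 (KCNE3) among 187 of all genes, against 0 among 17 with the filter. The blocked fits with other tools, within cohorts or with litters left out, and the omission of litters 4 and 7, were chosen after seeing the data.

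The following log2 fold changes, none of them called, changed sign. KCNJ4 for size was -0.15 and became 0.094 without surrogate variables, 0.23 in cohort 2 alone and 0.11 with the litter block, and KCNJ6 went from -0.55 to 0.36 in cohort 2 alone. For HF versus CON, cohort 2 alone gave -0.073 for KCNJ4 and 0.047 for KCNJ10, and leaving out litters gave -0.015 to 0.30 for KCNF1 and -0.029 to 0.17 for KCNJ4, both lowest without litter 4. KCNC2 for size on CON was 0.083 in cohort 1 alone, and KCNG1 for diet in SGA was -0.032 in cohort 2 alone. The causes were not tested. Of the other values of named genes, 546 kept their direction and side of the threshold, 55 passed it and 1 lost its call (KCNA6 for cohort without litter 3). Genes near 1 CPM, such as KCNJ6 and KCNH8, rest on few reads per library. The planned description of the pore signature was not run.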
